A study of Mus musculus with 20 samples.

Results

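Fibro/adipogenic progenitors (FAP) of wild-type (WT) mouse leg muscle were compared with the Misc population of the same muscles, gene by gene, in raw RNA counts. The libraries were chosen by their titles: 4 of FAP WT and 4 of Misc WT, 8 of the 20 in the series. The series profiled 3 populations, FAP, Misc and SMP, from quadriceps, tibialis anterior and gastrocnemius, in DKO and WT mice, and its title asks which cells express matrix in fibrotic muscle. FAP DKO and Misc DKO, 4 libraries each, are used as a second set that shares no library with the WT comparison, and SMP WT, 2 libraries, gives levels beside it. The labels do not name the gene or genes that DKO mice lack, and no deletion is assumed here. Sample labels write Misc where the design text writes FB, and no label ties them. The design text calls the replicates biological, but the sources used here do not say how the populations were separated or how old the mice were. Nor do they say whether each replicate is 1 animal or a pool, so p-values measure the spread between libraries. For the main gene by gene test that spread was estimated over all 20 libraries of the series, not over the 8 compared alone.

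FAPs are mesenchymal cells that lie between muscle fibres and blood vessels. They secrete factors that help muscle stem cells regenerate fibres, and they can turn into fat cells or scar-forming fibroblasts. Tendon cells are a different fibroblast type, marked by the transcription factor scleraxis (Scx) and the membrane protein tenomodulin (Tnmd), and build the stiff, parallel type I collagen fibrils that carry muscle force to bone.

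FAP WT libraries held 10464761 to 13042515 counts and Misc WT libraries 9566333 to 17730111. Libraries of the same population correlated at 0.985 to 0.990 (FAP WT) and 0.984 to 0.987 (Misc WT) on log2 CPM, against 0.917 to 0.928 between the populations. In all, 14179 genes passed the filter on low counts. CPM below means counts per 1000000 of a scaled library total, and a fold is FAP over Misc on the log2 scale, from the edgeR quasi-likelihood test, its p-values adjusted by Benjamini-Hochberg over all 14179 genes. A gene is called at an adjusted p below 0.05.

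The 4 genes given as markers separated the libraries completely. Ly6a encodes Sca-1, a surface protein used to sort FAPs (GRCm38.p6, chr15:74994877-74998031). It had 615, 703, 616 and 515 CPM in FAP WT, against 7.54, 5.99, 5.74 and 2.61 CPM in Misc WT, a log2 fold of 6.76 ± 0.63 (SE, n = 4 each, edgeR adjusted p = 4.8e-07). Cd248 encodes endosialin, a surface glycoprotein of stromal cells (chr19:5068078-5070640). It had 526, 449, 439 and 498 CPM in FAP WT, against 6.60, 4.81, 6.92 and 6.81 CPM in Misc WT (log2 fold 6.25 ± 0.42, edgeR adjusted p = 6.1e-09). All 4 FAP WT libraries stood far above all 4 Misc WT libraries for both genes. Here and below, fewer cells of a type and less RNA per cell cannot be told apart in bulk libraries.

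Scx went the other way (chr15:76457411-76459468). It had 0.785, 0.709, 0.835 and 0.571 CPM in FAP WT, against 81.7, 69.0, 67.7 and 94.1 CPM in Misc WT (log2 fold −6.71 ± 0.25, edgeR adjusted p = 2e-15). Tnmd, a membrane protein of mature tendon cells (chrX:133851008-133865577), had 41.0, 46.6, 44.1 and 33.0 CPM in FAP WT, against 2532, 2339, 1689 and 2253 CPM in Misc WT (log2 fold −5.74 ± 0.25, edgeR adjusted p = 1.7e-13). No FAP WT library came near the lowest Misc WT library for either gene. The FAP label therefore stands beside FAP markers, and the libraries labelled Misc carry the RNA of tendon cell markers; the name Misc is kept.

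**Figure D1:**
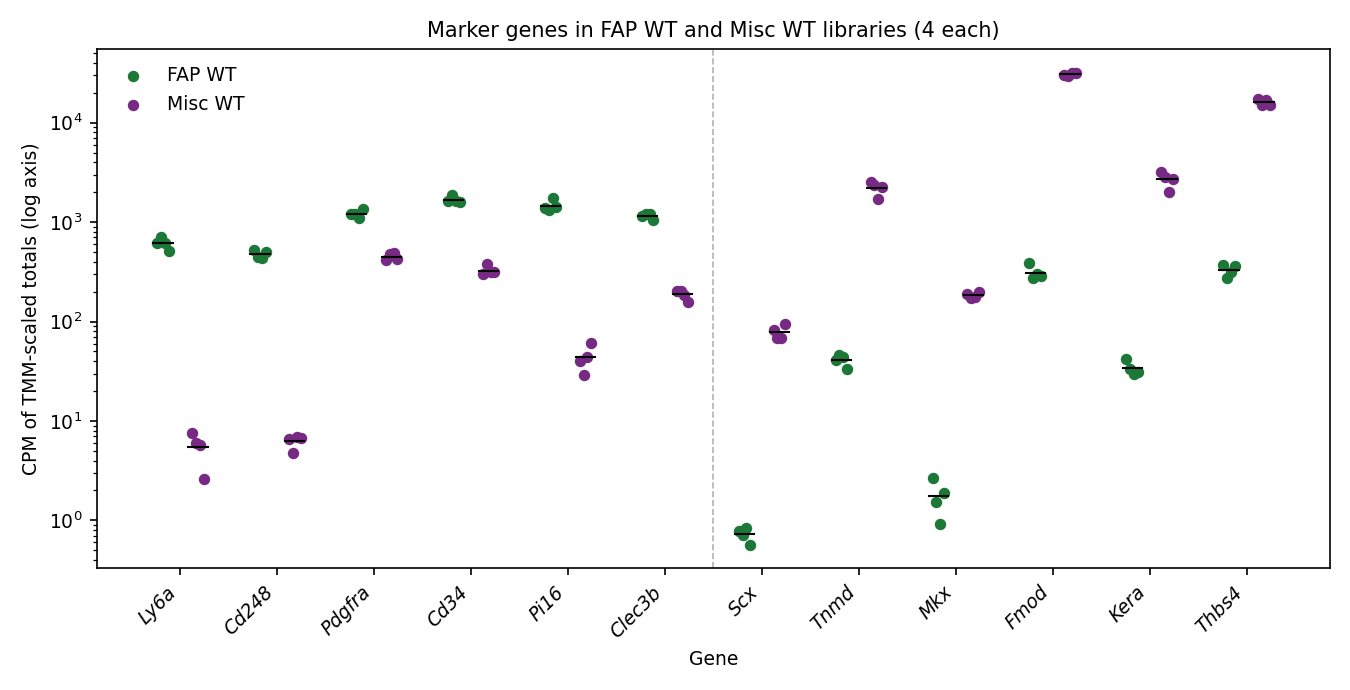
CPM of 12 marker genes (log axis) in each FAP WT and Misc WT library, with FAP WT to the left of Misc WT for each gene, points for libraries and lines for group means (n = 4 each). The 6 FAP markers left of the dashed line are higher in every FAP WT library and the 6 tendon markers right of it are lower, without overlap. The 12 genes were picked from longer lists. Of 25 FAP genes listed, 15 were higher in FAP WT, 2 lower and 8 not called. Of 18 tendon genes listed, 16 were lower, 1 higher and 1 not called.

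SMP WT libraries, in which the myogenic genes were most abundant, put the markers on a wider scale. Ly6a had 8.11 and 6.93 CPM and Cd248 1.86 and 3.42 CPM in SMP WT, which put Ly6a near its Misc WT levels and Cd248 below every Misc WT library. Scx had 19.9 and 19.1 CPM and Tnmd 209 and 268 CPM in SMP WT, between FAP WT and Misc WT. FAP WT was thus the lowest of these 3 groups for both tendon markers.

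Across the whole transcriptome, 5229 of 14179 genes were called (36.9%): 2740 higher in FAP WT (19.3%) and 2489 lower (17.6%). At least a 2-fold difference held for 2207 genes (15.6%), 1032 of the higher genes (7.28% of those tested) and 1175 of the lower ones (8.29%). The 4 FAP WT values and the 4 Misc WT values did not overlap for 5667 genes (40.0%). Fitted on these 2 groups alone, called the 2-group fit here, 2914 genes were higher and 2856 lower, and with replicate number added to that fit as a block 3362 and 3255. The median log2 fold of all genes was 0.01, and every list below is read against these shares. Gene lists were drawn up with earlier results of these data known, so their counts describe the lists and do not test them.

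**Figure D2:**
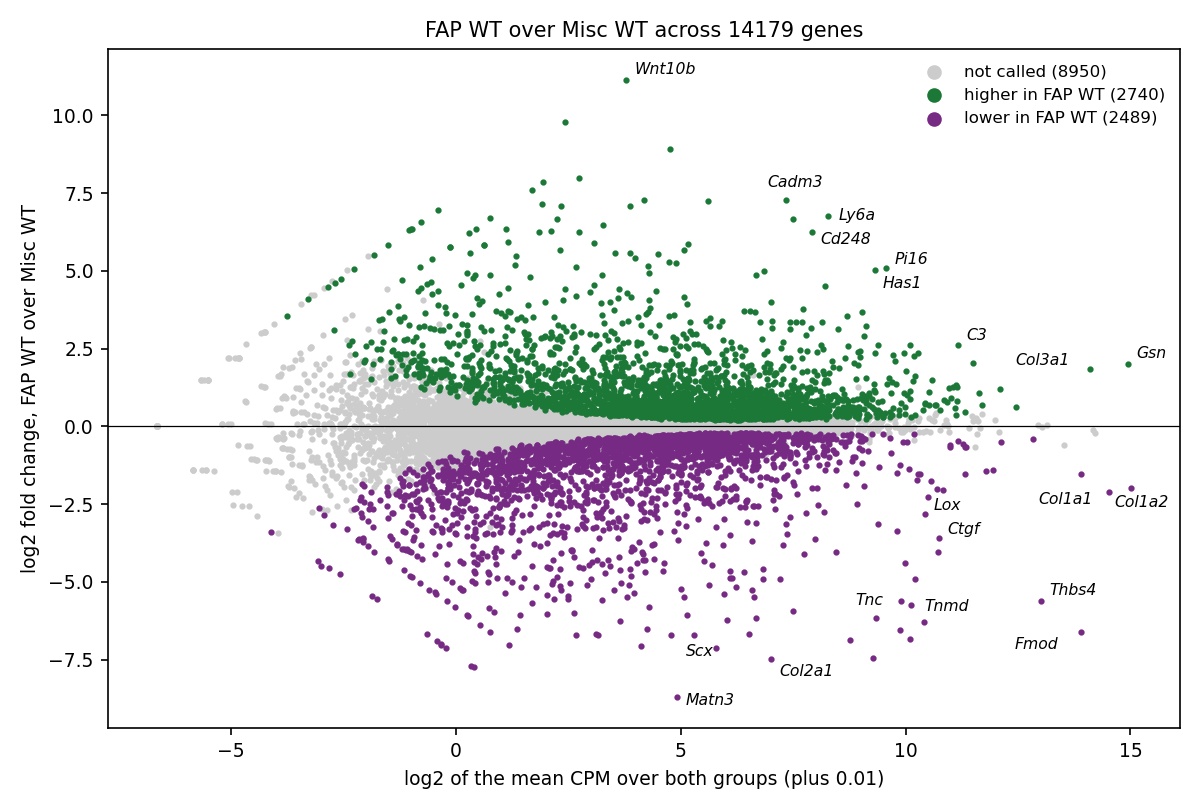
Log2 fold of FAP WT over Misc WT against the log2 of the mean CPM over both groups for 14179 genes, coloured by edgeR call (2740 higher, 2489 lower). Col1a1, Col1a2, Fmod and Thbs4 lie at the abundant, lower right and Gsn and Col3a1 at the abundant, upper right.

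FAP WT replicate 1 stood apart from the other FAP WT libraries for some genes. It had 32.9 CPM of the endothelial gene Pecam1, against 7.71 to 13.3 CPM in the other FAP WT libraries, and 6.58 to 15.8 CPM in Misc WT (log2 fold 0.49, not called, or −0.18 without that library). The same library had 1.81 CPM of Ptprc, the pan-leukocyte gene, against 0 to 0.0952 CPM in the other FAP WT libraries. Its part in the results was not tested beyond leaving it out, after which 2516 genes were higher and 2259 lower.

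FAP markers were mostly higher in FAP WT. Of its 25 members, all tested, 15 were higher in FAP WT and 2 lower (4 lower in the 2-group fit, 5 with the block added), and the median log2 fold was 0.80. Cd34, a surface sialomucin of progenitor cells, averaged 1678 ± 119 CPM in FAP WT and 325 ± 34.6 CPM in Misc WT (SD, n = 4 each). Pdgfra, the receptor that defines mesenchymal progenitors of muscle, averaged 1210 ± 103 CPM in FAP WT and 449.8 ± 35.2 CPM in Misc WT. Pdgfra was therefore abundant in both populations, with a log2 fold of 1.43 ± 0.40 (edgeR adjusted p = 0.01), far smaller than that of Ly6a. Pi16, which marks a broad class of progenitor-like fibroblasts, reached 1468 ± 192 CPM in FAP WT against 43.6 ± 13.5 CPM in Misc WT (log2 fold 5.08 ± 0.55).

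Gsn, the actin-severing protein gelsolin, had 51195, 49243, 51553 and 49706 CPM in FAP WT, against 11237, 12417, 14965 and 12317 CPM in Misc WT (log2 fold 1.99 ± 0.32, edgeR adjusted p = 7.2e-05). Every FAP WT library held more of it than any Misc WT library. Dlk1, a membrane protein of preadipocytes, and Adam12, a disintegrin metalloprotease, were the 2 members that fell, with log2 folds of −1.23 and −1.08. Dcn, the collagen-binding proteoglycan decorin, averaged 17549 ± 538 CPM in FAP WT and 20210 ± 351 CPM in Misc WT and was not called (log2 fold −0.20 ± 0.24, edgeR adjusted p = 0.56), although the 4 values of each group did not overlap; the adjusted p was 0.061 in the 2-group fit and 0.019 with the block added. Lum, Fbln1 and Col15a1 were not called either.

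The tendon list was lower in FAP WT almost throughout. Of 18 members, all tested, 16 were lower in FAP WT, 1 was higher and 1 was not called, with a median log2 fold of −5.68. Summed over the list, FAP WT libraries held 7588 to 9017 CPM, against 69044 to 72587 CPM in Misc WT and 13791 to 15642 CPM in SMP WT. Egr1, which differed little, made up most of the FAP WT sum; without it the sums were 1926 to 2442 CPM in FAP WT, against 60787 to 65085 CPM in Misc WT and 5826 to 6294 CPM in SMP WT. Fibromodulin (Fmod), a proteoglycan that steers collagen fibril growth in tendon, had 389, 271, 298 and 284 CPM in FAP WT, against 29861, 29120, 31486 and 31694 CPM in Misc WT (log2 fold −6.62 ± 0.34, edgeR adjusted p = 8.7e-12). Fmod was thus among the most abundant transcripts of Misc WT and a minor one in FAP WT.

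Thbs4, thrombospondin 4, a matrix protein of tendon and muscle-tendon junctions, averaged 330.0 ± 44.9 CPM in FAP WT and 16119 ± 1165 CPM in Misc WT. Mkx, the homeobox factor mohawk that drives tendon collagen genes, averaged 1.75 ± 0.733 CPM in FAP WT and 183 ± 12.0 CPM in Misc WT. The proteoglycan genes Kera and Chad had log2 folds of −6.30 ± 0.43 and −6.56 ± 0.36, and Cilp2 one of −6.85 ± 0.37. Comp and Col12a1, matrix proteins of load-bearing tissue, had log2 folds of −4.38 and −4.05. Egr1 and Egr2, early-response factors also used in tendon development, fell by only 0.42 and 0.77 on the log2 scale. Htra3, a secreted protease on the list, was higher in FAP WT (log2 fold 1.08), and Aqp1 was not called.

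Where promoters are listed in RefSeq for these genes, the 250 bases before the start show the sequences the 2 sets of genes carry. Shown are 2 tendon genes, Tnmd and Fmod, which were lower in FAP WT, and Col1a2 and Col3a1, a pair of abundant fibrillar collagen genes with opposite directions. Ly6a, Cd248, Scx and Col1a1 are named only. Capitals mark E-boxes, the letters CANNTG, which basic helix-loop-helix factors such as scleraxis bind; both strands were searched, and since CANNTG reads alike on both strands each site counts once. Coordinates are GRCm38.p6 on the plus strand, and each sequence is from RefSeq's table.
Tnmd promoter, chrX:133850758-133851007: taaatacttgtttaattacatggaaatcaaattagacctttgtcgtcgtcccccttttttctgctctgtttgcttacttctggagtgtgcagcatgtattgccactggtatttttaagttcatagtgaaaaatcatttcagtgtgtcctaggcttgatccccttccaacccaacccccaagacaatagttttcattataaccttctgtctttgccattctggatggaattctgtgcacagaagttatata
Fmod promoter, chr1:134037004-134037253: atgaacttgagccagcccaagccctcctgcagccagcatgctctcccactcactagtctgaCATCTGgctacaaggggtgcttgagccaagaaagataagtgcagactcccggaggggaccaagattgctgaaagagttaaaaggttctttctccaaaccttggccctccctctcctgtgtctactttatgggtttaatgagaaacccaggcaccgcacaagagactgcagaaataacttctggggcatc
Col1a2 promoter, chr6:4505368-4505617: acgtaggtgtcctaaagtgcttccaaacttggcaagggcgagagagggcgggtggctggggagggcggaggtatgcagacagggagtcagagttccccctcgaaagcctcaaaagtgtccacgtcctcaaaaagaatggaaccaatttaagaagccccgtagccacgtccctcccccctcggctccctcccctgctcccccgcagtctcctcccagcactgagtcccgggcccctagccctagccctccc
Col3a1 promoter, chr1:45311288-45311537: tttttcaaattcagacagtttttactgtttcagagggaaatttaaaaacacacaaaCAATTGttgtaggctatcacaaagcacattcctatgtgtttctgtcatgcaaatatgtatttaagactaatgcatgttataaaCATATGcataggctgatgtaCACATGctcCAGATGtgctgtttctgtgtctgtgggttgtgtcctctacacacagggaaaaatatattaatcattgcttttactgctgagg

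The Col3a1 window held 4 E-boxes, the Fmod window 1, and the Tnmd and Col1a2 windows 0. CATCTG in Fmod is CAGATG read on the other strand, and CAGATG stands once in Col3a1. Of 11146 promoters of tested genes, 57.2% held CANNTG, against 60.7% of the 778 promoters of genes at least 2-fold higher in FAP WT and 63.0% of the 870 of genes at least 2-fold lower. For CAGATG, a subset of CANNTG, the counts were 1120 of all, 111 of the higher (14.3%) and 101 of the lower set (11.6%). For TGANTCA, the AP-1 site, they were 4.39%, 8.10% and 4.83%, and for TATAAA 6.67%, 9.51% and 8.74%. These are letters in a window and not binding sites.

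All 11 fibrillar collagen genes were called, 5 higher and 6 lower in FAP WT, and none overlapped between the groups. Fibrillar collagens form the ropes of connective tissue, and types I and III are usually woven together. Col1a1 had 10351, 8764, 8560 and 7963 CPM in FAP WT, against 35849, 35085, 35705 and 46014 CPM in Misc WT (log2 fold −2.10 ± 0.20, edgeR adjusted p = 1.3e-08). Col1a2 averaged 13315 ± 1432 CPM in FAP WT and 52907 ± 5976 CPM in Misc WT (log2 fold −1.99 ± 0.20). Col3a1 had 33033, 29903, 24155 and 22983 CPM in FAP WT, against 7984, 8173, 7910 and 6383 CPM in Misc WT (log2 fold 1.85 ± 0.16, edgeR adjusted p = 1.3e-09). Type I collagen RNA was thus lower, and type III collagen RNA higher, in every FAP WT library.

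The ratio of Col3a1 to Col1a1 counts, chosen after the values were seen and given without a test, was 3.19, 3.41, 2.82 and 2.89 in FAP WT, against 0.223, 0.233, 0.222 and 0.139 in Misc WT, a difference of means of 2.87. In DKO the ratio averaged 2.66 ± 0.291 in FAP and 0.412 ± 0.0877 in Misc (SD, n = 4 each), and in SMP WT it was 0.875 and 0.727. The 2 type I collagen genes took 2.48%, 2.11%, 2.09% and 1.93% of the counts in FAP WT libraries, against 8.33%, 8.04%, 7.98% and 9.91% in Misc WT (exact permutation test, two-sided, p = 0.0286, the smallest that 4 against 4 allows). The 20 most abundant genes of each library took 21.6 ± 0.727% of counts in FAP WT and 28.0 ± 1.47% in Misc WT (exact permutation test, two-sided, p = 0.0286). With labels exchanged only within pairs of equal replicate number, both exact p-values were 0.125, the smallest that 4 pairs allow.

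The minor fibrillar collagens were divided too. The type V genes Col5a1, Col5a2 and Col5a3, which start fibrils, had log2 folds of 1.24, 0.60 and 1.11, and Col27a1 one of 1.10. Col2a1, the main collagen of cartilage, averaged 1.39 ± 0.557 CPM in FAP WT and 257 ± 24.7 CPM in Misc WT. Col11a1 and Col11a2, whose products join type II fibrils, had log2 folds of −6.15 ± 0.19 and −7.46 ± 0.40, and Col24a1 one of −5.09.

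**Figure D3:**
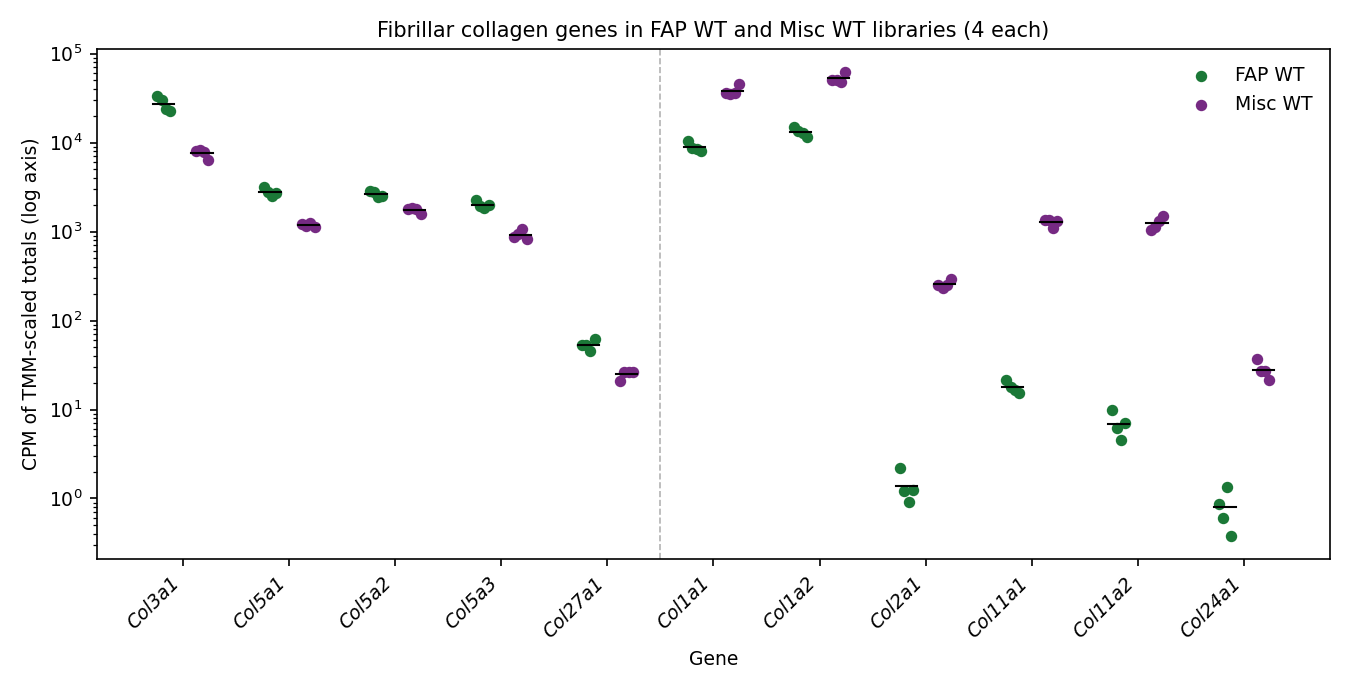
CPM of the 11 fibrillar collagen genes (log axis) in each FAP WT and Misc WT library, FAP WT to the left of Misc WT, with points for libraries and lines for means (n = 4 each). The 5 genes left of the dashed line, Col3a1 and the type V genes among them, are higher in FAP WT, and the 6 genes right of it, Col1a1 and Col2a1 among them, are lower.

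Cartilage and enthesis genes, which are also expressed where tendon meets bone, were mostly lower in FAP WT. Of 22 members tested of 29 in the table, 14 were lower and 1 higher (2 higher with the block added to the 2-group fit), with a median log2 fold of −2.49. Matn3, a cartilage matrix protein, had 0.471 CPM in FAP WT replicate 1 and 0 in the other 3 FAP WT libraries, against 60.5, 61.8, 57.6 and 60.5 CPM in Misc WT. Its log2 fold of −8.70 ± 0.42 rested on that 1 library; without it FAP WT held 0 counts, at least 649-fold lower against a floor of 3 counts over the group. Sox6, a chondrocyte transcription factor, averaged 0.745 ± 0.270 CPM in FAP WT and 24.7 ± 3.74 CPM in Misc WT. Sox5, its partner in cartilage, was higher in FAP WT (14.9 against 8.11 CPM, log2 fold 0.88), and Sox9, the main cartilage factor, was not called (log2 fold 0.24). Acan, the aggregating proteoglycan of cartilage, averaged 0.620 CPM in FAP WT and 11.7 CPM in Misc WT.

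Beyond the fibrils, the matrix lists divided by type. Of 24 other collagens tested, 3 were higher in FAP WT and 11 lower (4 higher in the 2-group fit, 6 with the block added), led by Col14a1 (1400 against 288 CPM, log2 fold 2.28) on the higher side and Col22a1, a collagen of tissue junctions, on the lower side. Col22a1 had a log2 fold of −6.15 ± 0.36, or −6.80 without FAP WT replicate 1. Small leucine-rich proteoglycans were lower in 10 of 16 and higher in 2, Tsku and Aspn (4 in the 2-group fit, with and without the block). Matricellular proteins, which tune cell contact with the matrix, were lower in 14 of 22 and higher in 3. Among them Tnc, tenascin C, averaged 38.6 ± 4.50 CPM in FAP WT and 1877 ± 115 CPM in Misc WT (log2 fold −5.60 ± 0.14), while its relative Tnxb rose (2992 against 1257 CPM, log2 fold 1.25).

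Basement membrane genes, by contrast, were higher in 13 of 21 and lower in 4, with a median log2 fold of 0.52. Basement membranes are the thin sheets under fibres and vessels. Nid1 and Nid2, which link laminin to type IV collagen, had log2 folds of 1.08 and 0.95, and Lamc1, a laminin chain, one of 0.78 ± 0.10. Lama3, another laminin chain, was the opposite case, at 4.48 ± 1.34 CPM in FAP WT and 98.8 ± 11.3 CPM in Misc WT. Of the 4 lower calls, 2 remained without FAP WT replicate 3, Misc WT replicate 1 or Misc WT replicate 3, and 1 without FAP WT replicate 4. Lama5, a laminin chain whose log2 fold was −1.18 (−1.80 without FAP WT replicate 1), was among the calls lost.

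The elastic fibre list was split, with 9 of 22 higher and 8 lower. Fbn1, the fibrillin of the adult microfibril, averaged 4634 ± 432 CPM in FAP WT and 1140 ± 75.9 CPM in Misc WT, whereas Fbn2, the fibrillin prominent in development, averaged 4.56 CPM in FAP WT and 56.4 CPM in Misc WT (log2 folds 2.02 and −3.64). Emilin2 and Efemp1, further microfibril proteins, had log2 folds of 3.76 ± 0.16 and 3.34 ± 0.24. Ltbp4, which stores TGF-beta in the matrix, rose (1.25), and its relatives Ltbp2, Ltbp3 and Ltbp1 fell by 2.67, 1.13 and 0.50 on the log2 scale.

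Hyaluronan, a large sugar polymer of loose connective tissue, is made by 3 synthases, of which Has1 and Has2 were higher in FAP WT. Has1 had 1100, 1213, 1471 and 1159 CPM in FAP WT, against 24.3, 42.4, 53.3 and 31.0 CPM in Misc WT (log2 fold 5.04 ± 0.32, edgeR adjusted p = 1.2e-09). Has2 averaged 195 ± 28.9 CPM in FAP WT and 27.8 ± 6.13 CPM in Misc WT, and Has3 was not called (log2 fold −0.56). Vcan, a large proteoglycan that binds hyaluronan, and Tnfaip6, which crosslinks it, had log2 folds of 1.88 and 2.10. Over the list of hyaluronan and cell surface proteoglycans, 6 of 21 were higher and 9 lower; Sdc1 and Sdc3, syndecans, fell by 2.33 and 2.56 on the log2 scale.

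Enzymes that build and crosslink collagen were more often lower in FAP WT, 14 of 30 against 5 higher. Lox, which crosslinks fibrils, averaged 348 ± 22.3 CPM in FAP WT and 2436 ± 138 CPM in Misc WT (log2 fold −2.81 ± 0.16), and Leprel1, a prolyl 3-hydroxylase, averaged 4.10 ± 0.853 CPM in FAP WT and 146 ± 7.35 CPM in Misc WT. Loxl1, a relative active on elastic fibres, rose (449.9 against 169.5 CPM, log2 fold 1.41). General secretory pathway genes showed little movement: 8 of 39 lower and 0 higher, with a median of −0.10; in the 2-group fit 11 were lower and 2 higher, with the block added 17 and 3, and without FAP WT replicate 3 only 5 were lower. Matrix proteases and inhibitors were split, 10 of 36 higher and 14 lower. Adamts16, an ADAMTS protease, averaged 36.3 ± 5.46 CPM in FAP WT and 0.204 ± 0.118 CPM in Misc WT, and Adamts3, which trims procollagen, averaged 14.0 CPM in FAP WT and 178 CPM in Misc WT.

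Complement and cytokine lists held larger shares of genes higher in FAP WT than the 19.3% of all genes tested. Of 19 complement genes tested, 14 were higher and 3 lower, with a median log2 fold of 1.45. C3, the central complement protein, had 4010, 3486, 4746 and 3634 CPM in FAP WT, against 651, 640.2, 730.3 and 536 CPM in Misc WT (log2 fold 2.63 ± 0.64, edgeR adjusted p = 0.0041). C7, a component of the lytic pore, averaged 571 ± 117 CPM in FAP WT and 24.9 ± 8.48 CPM in Misc WT, and Cfb, a protease of the alternative pathway, had a log2 fold of 3.72 ± 0.34. Cd55, which shields cells from complement, rose too (3.37 ± 0.25). C4a with C4b, and C1ra with C1rb, are near-identical pairs whose reads the counting could split, so their separate values are uncertain. The 3 lower members, C1qtnf3, C1qtnf6 and Cd59a, are C1q-like secreted proteins and a complement inhibitor.

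Of 37 chemokines, cytokines and their receptors, 23 were higher and 2 lower (3 lower in the 2-group fit, 6 with the block added), with a median of 0.99. Cxcl13, which draws B cells, had 457 counts over the FAP WT libraries and 3 over the Misc WT libraries, a 167-fold ratio (95% counting interval 56.8 to 813, which covers counting error only). Il6 averaged 536 ± 75.5 CPM in FAP WT and 124 ± 22.7 CPM in Misc WT, and the neutrophil chemokine Cxcl1 averaged 1185 CPM in FAP WT and 401 CPM in Misc WT. Interferon response and class I antigen genes were higher in 21 of 31 and lower in 2; Ifit1, an interferon-induced RNA-binding protein, and B2m, the class I light chain, had log2 folds of 2.48 and 0.61. H2 genes resemble each other, and their separate counts are uncertain.

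Immune cell markers were low in both populations beside these lists. Summed over 16 tested immune genes, FAP WT libraries held 14.5 to 53.2 CPM and Misc WT libraries 15.3 to 21.6 CPM. Ptprc had 25 counts over FAP WT, most in replicate 1, and 0 over Misc WT. That is at least a 9.14-fold difference against a floor of 3 counts over the group, a bound that rests on replicate 1. Ptprc was not called (edgeR adjusted p = 0.16, or 0.6 without that library). Only Cd14, a receptor for bacterial products, was called on that list, and the call was lost without FAP WT replicate 1, Misc WT replicate 1 or Misc WT replicate 3. Endothelial genes summed to 237 to 415 CPM in FAP WT and 179 to 221 CPM in Misc WT; of 15 tested, Plvap was higher and Erg lower (2 higher in the 2-group fit, 5 with the block added, 0 without FAP WT replicate 1, Misc WT replicate 3 or Misc WT replicate 4). Mature muscle fibre genes summed to 39.3 to 63.4 CPM in FAP WT and 60.2 to 71.5 CPM in Misc WT, with 5 of 20 lower (2 without FAP WT replicate 4). Their part in the complement and cytokine results was not tested.

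The satellite cell and myogenic list summed to 222 to 285 CPM in FAP WT and 279.7 to 329.6 CPM in Misc WT, against 3746 to 3884 CPM in SMP WT. Its defining gene Pax7 had 0.240 ± 0.134 CPM in FAP WT and 0.494 ± 0.710 CPM in Misc WT and was not called (log2 fold −1.29, or 0.60 without Misc WT replicate 1). Pericyte and smooth muscle genes were higher in 4 of 17 and lower in 5; Acta2, smooth muscle actin, averaged 13.0 ± 7.32 CPM in FAP WT and 60.7 ± 5.30 CPM in Misc WT, while the pericyte channel subunit Abcc9 rose (37.0 against 2.21 CPM). Of 24 nerve sheath and Schwann cell genes, 5 were higher and 8 lower; Sox10, which defines Schwann cells, was not called. Adipocyte genes were higher in 5 of 18 and lower in 1 (6 and 1 in the 2-group fit, 9 and 2 with the block added). Their called share lay near the 36.9% of all genes tested. Pparg, the master regulator of fat cells, had 3.97 CPM in FAP WT and 1.35 CPM in Misc WT. The lower member, Apoe, averaged 311 ± 33.1 CPM in FAP WT and 622 ± 51.8 CPM in Misc WT. Adipocyte genes summed to 3488 to 4178 CPM in FAP WT and 3130 to 4018 CPM in Misc WT.

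Wnt pathway genes were called in 25 of 30, 13 higher and 12 lower in FAP WT. A pair of Wnt ligands had almost no counts in Misc WT. Wnt10b, a ligand that holds back fat formation, had 25.4, 22.5, 35.8 and 26.4 CPM in FAP WT and no count in any Misc WT library (1251 against 0 counts), at least 457-fold higher against a floor of 3 counts over the group. Wnt2 had 593 counts in FAP WT and 2 in Misc WT, a 325-fold ratio (95% counting interval 89.6 to 2691). Sfrp4, a secreted Wnt antagonist, averaged 309.7 ± 61.3 CPM in FAP WT and 35.6 ± 5.57 CPM in Misc WT. Wif1, another antagonist, was the reverse, with 9.11, 5.78, 5.43 and 9.14 CPM in FAP WT, against 881, 744, 834 and 991 CPM in Misc WT (log2 fold −6.87 ± 0.51). The feedback targets Axin2, Nkd1 and Nkd2 fell by 2.20, 1.45 and 2.82 on the log2 scale.

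Signals of the TGF-beta superfamily were called in 31 of 45, 12 higher and 19 lower. Gdf10, a ligand of that family, averaged 225 ± 13.2 CPM in FAP WT and 7.10 ± 1.50 CPM in Misc WT, and Fst, follistatin, which binds activin and myostatin, had 331, 388, 320.4 and 330.4 CPM in FAP WT, against 55.0, 81.9, 54.5 and 60.2 CPM in Misc WT. Mstn, myostatin, the brake on muscle growth, had 0.236, 0.405, 0.250 and 0.0952 CPM in FAP WT, against 16.9, 13.7, 7.10 and 6.13 CPM in Misc WT (log2 fold −5.45 ± 0.44). Receptor and ligand genes Tgfbr2 and Tgfb2 rose by 0.61 and 0.52, and Tgfbr1 and Tgfb3 fell by 0.71 and 0.70, on the log2 scale.

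Ligands that act on epithelium, vessels and muscle were also split. Fgf7 and Fgf10, which signal to epithelia, had log2 folds of 2.33 and 2.54, and Fgf9 one of −2.21; 7 of 20 FGF genes were higher and 9 lower. Among PDGF, VEGF and angiopoietin genes, 10 of 24 were higher and 9 lower, with Kitl, the stem cell factor, at 78.0 CPM in FAP WT and 12.9 CPM in Misc WT and Angptl7, an angiopoietin-like protein, at 76.8 CPM in FAP WT and 2299 CPM in Misc WT. In the insulin-like growth factor list 5 of 14 were called, a share near the 36.9% of all genes tested. Of these, 2 were higher and 3 lower (7 and 5 in the 2-group fit, 8 and 6 with the block added, and 1 higher without FAP WT replicate 1). Igf1 was not called (log2 fold −0.23).

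Genes that respond to tension were mostly lower in FAP WT, 11 of 19 against 4 higher. Ctgf and Cyr61, targets of the YAP coactivator, averaged 262 ± 19.8 and 1306 CPM in FAP WT, against 3145 ± 463 and 3794 CPM in Misc WT. The stretch-gated channels Piezo1 and Piezo2 had log2 folds of −1.70 and −2.23, and Yap1 itself one of −0.35. Immediate early genes, which also rise when tissue is taken apart, moved less: 5 of 24 higher (3 without Misc WT replicate 1) and 9 lower, with a median of −0.11. Fos and Jun fell by 0.51 and 0.66 on the log2 scale, while Atf3 and Hspb1 rose by 1.00 and 0.96. Over the list the log2 fold ran from −0.70 to 2.88.

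Among transcription factors and positional genes, calls also went both ways. Of 60 mesenchymal and limb factors tested, 19 were higher and 25 lower. Osr1, a factor of muscle connective tissue, and Ebf2, an adipose lineage factor, had log2 folds of 2.02 and 1.75, whereas Six2 and Eya1, a limb and tendon pair, fell by 4.40 and 4.55. Hox genes, which encode position along the limb and trunk, were lower in 11 of 27, higher in 1 and not called in 15, with a median of −0.34. All 7 called members of the HoxD cluster were lower. Of 36 axon guidance genes, 18 were lower and 8 higher (5 higher without Misc WT replicate 1); Sema3a, a repellent of growing axons, averaged 9.13 ± 0.710 CPM in FAP WT and 219.6 ± 18.8 CPM in Misc WT. Among retinoid genes, Aldh1a2, which makes retinoic acid, averaged 121 ± 25.8 CPM in FAP WT and 18.2 ± 6.76 CPM in Misc WT, and Cyp26a1, which degrades it, averaged 0.162 ± 0.161 CPM in FAP WT and 17.1 ± 7.53 CPM in Misc WT (log2 fold −6.66; without FAP WT replicate 4, 3 counts in FAP WT and 807 in Misc WT, a 188-fold ratio with a 95% counting interval of 64.2 to 914).

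Receptors for matrix were split. Of 24 integrins and related receptors, 8 were higher and 8 lower. Itga10, a receptor for type II collagen, averaged 4.97 ± 0.796 CPM in FAP WT and 82.8 ± 6.20 CPM in Misc WT, and Itga1 and Itga2, other collagen receptors, fell by 1.94 and 3.06 on the log2 scale. Itgb7 and Itgb3 had log2 folds of 5.56 and 3.59. Of 39 potassium, sodium and calcium channel genes, 9 were higher and 17 lower, led by Kcnma1, the large-conductance potassium channel, at 2.92 ± 0.471 CPM in FAP WT and 122 ± 10.7 CPM in Misc WT.

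**Figure D4:**
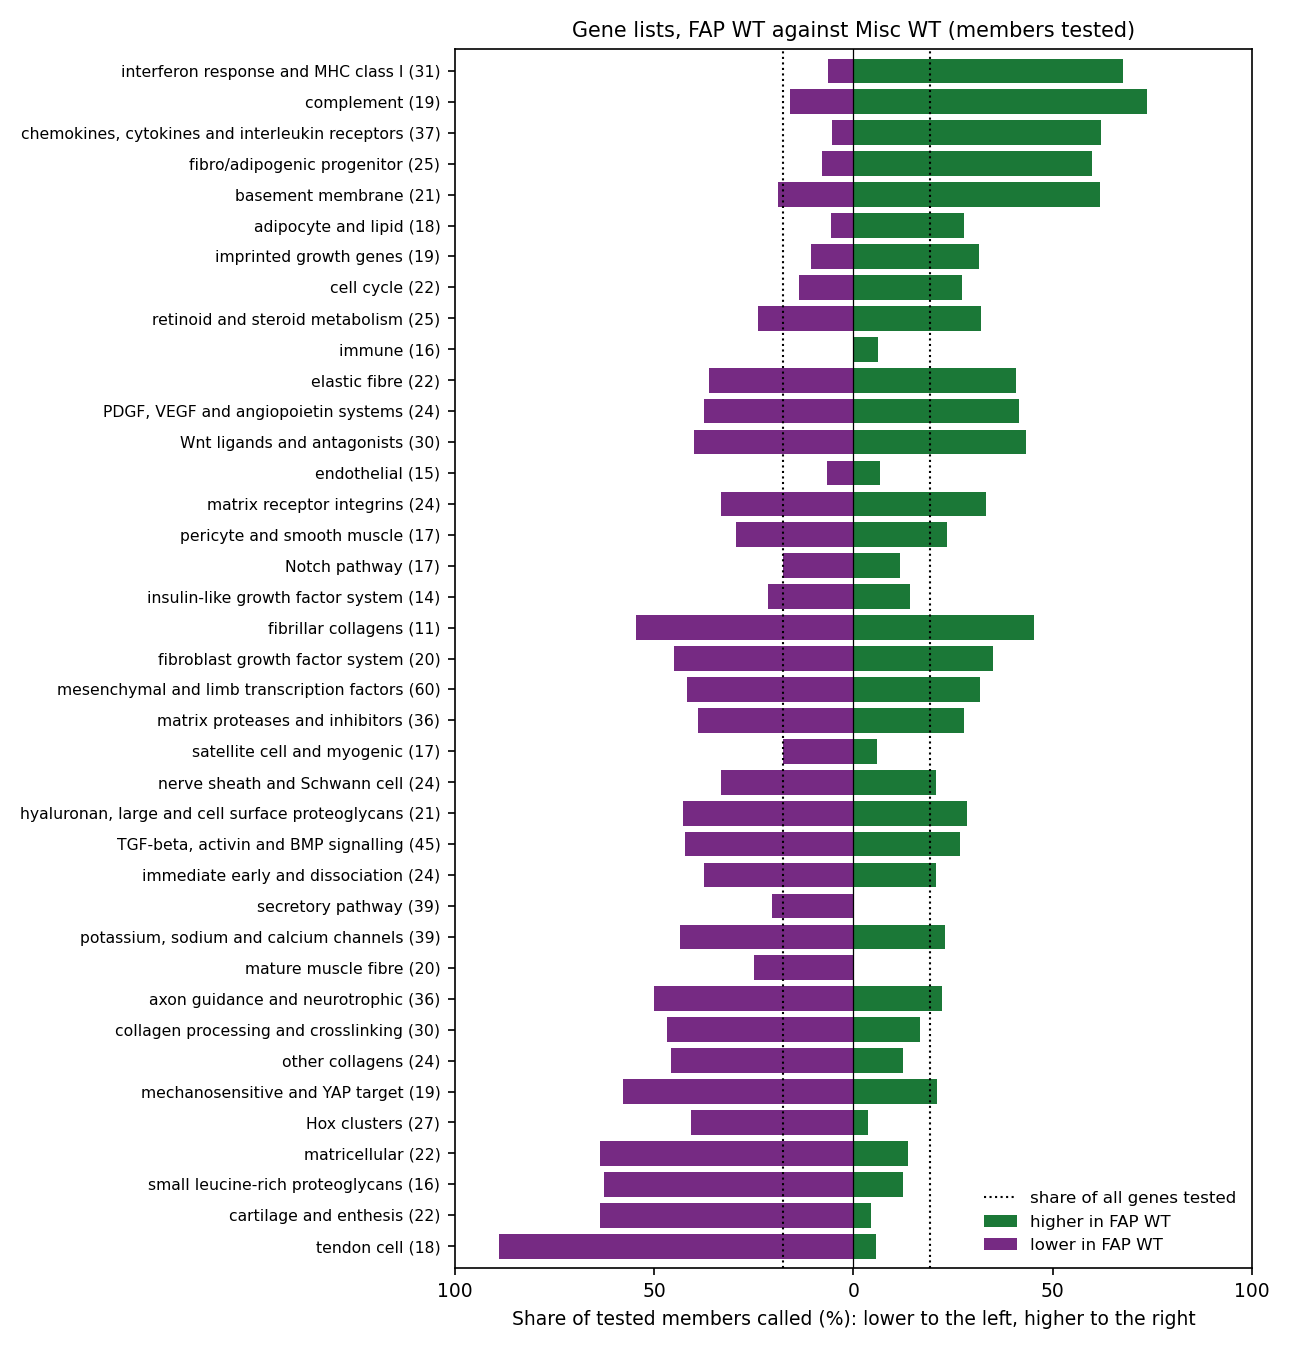
Share of the tested members of each of 39 gene lists that edgeR called higher (right) or lower (left) in FAP WT than in Misc WT, with the number tested in brackets and dotted lines at the shares of all genes, 19.3% and 17.6%. Complement, interferon and cytokine lists reach farthest to the right, and the tendon list, at 16 of 18, farthest to the left.

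The other genes with the largest differences came from many pathways. Cmah, which makes the sialic acid that humans lack, had 52.7, 60.0, 56.9 and 48.3 CPM in FAP WT, against 0.177, 0, 0.182 and 0 CPM in Misc WT, with a log2 fold of 8.91 ± 0.55; without Misc WT replicate 1 it had 2452 counts in FAP WT and 2 in Misc WT, an 883-fold ratio (95% counting interval 244 to 7294). Cadm3, a cell adhesion molecule, averaged 322 ± 38.4 CPM in FAP WT and 1.98 ± 0.721 CPM in Misc WT, and Ly6c1, next to Ly6a on chromosome 15, averaged 358 ± 46.1 CPM in FAP WT and 3.43 ± 1.13 CPM in Misc WT. Stmn4 (a stathmin), Smpd3 (a neutral sphingomyelinase), Duox1 (a dual oxidase), Ackr2 (a chemokine-scavenging receptor), Islr2 and Sbsn had log2 folds between 5.25 and 7.23. The abundant chaperone gene Hspa8 was not called and averaged 8354 ± 719 CPM in FAP WT and 8395 ± 908 CPM in Misc WT. On the lower side Ptx4, a pentraxin, had a log2 fold of −7.12 ± 0.17 and Scube2, a secreted hedgehog cofactor, one of −6.22 ± 0.14. Insc, which orients cell division, had one of −6.71, or −7.41 without FAP WT replicate 1.

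For the genes at least 2-fold apart, the richer population, FAP WT or Misc WT, was also set against SMP WT, the third population. Of the 1032 genes at least 2-fold higher in FAP WT, all 4 FAP WT values lay above both SMP WT values in 776 (75.2%). Of the 1175 genes at least 2-fold lower, all 4 Misc WT values lay above both SMP WT values in 689 (58.6%). These are counts without a test. The genes had been chosen for high values in the same FAP WT or Misc WT libraries. The share over all genes tested was not counted, so these shares have no background to be read against.

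The same contrast in DKO libraries, which share none with the WT contrast, called 4213 genes (29.7%): 2269 higher in FAP (16.0%) and 1944 lower (13.7%). Of these, 970 were at least 2-fold higher (6.84%) and 894 at least 2-fold lower (6.31%). Of the genes higher in WT, 1762 were also called higher in DKO, which is 64.3% of the WT calls and 77.7% of the DKO calls. Of the genes lower in WT, 1513 were called lower in DKO, 60.8% and 77.8%. Only 12 and 7 were called the other way. Ly6a averaged 484 ± 49.8 CPM in FAP DKO and 5.62 ± 1.76 CPM in Misc DKO, and Scx averaged 2.64 ± 1.38 CPM in FAP DKO and 118 ± 26.1 CPM in Misc DKO. The tendon list had 17 of 18 lower in DKO and a median of −4.75.

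**Figure D5:**
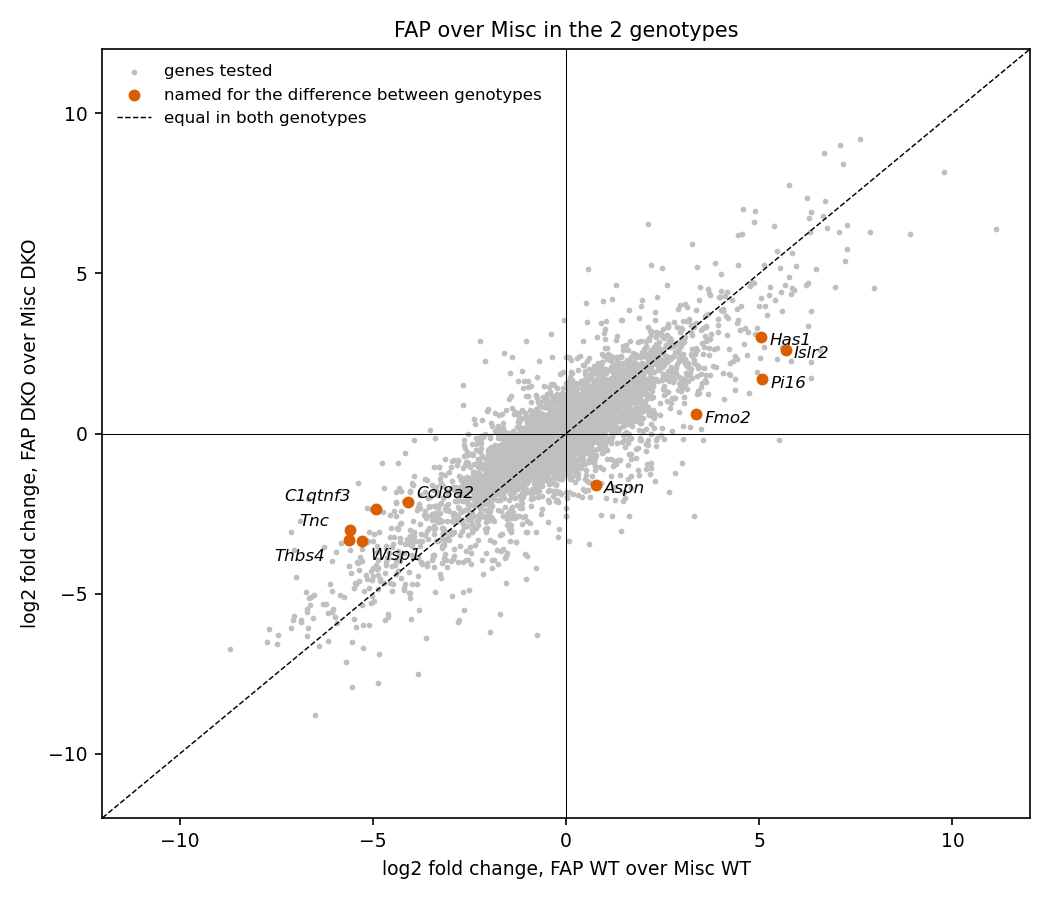
Log2 fold of FAP over Misc in DKO (vertical) against WT (horizontal) for 14179 genes, with the 10 genes named for their difference between the genotypes in orange and a dashed line of equality. Has1, Islr2, Pi16, Fmo2 and Aspn lie below the line, and Thbs4, Tnc, Wisp1, Col8a2 and C1qtnf3 above it.

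The fold of FAP over Misc differed between DKO and WT for 396 genes (2.79%), 194 with a higher (1.37%) and 202 with a lower value in DKO (1.42%). At least a 2-fold difference held for 182 (1.28%), 89 higher (0.628%) and 93 lower (0.656%). With no limit on the fold, fitting only the 4 FAP and Misc groups gave 330 higher and 260 lower values, and the block added to that fit 761 and 485. The lower count was 119, 116 and 123 without Misc WT replicates 1, 2 and 4 and 134 without Misc DKO replicate 4. Tnc, at −3.02 in DKO and −5.60 in WT, had a difference of 2.58 ± 0.17 on the log2 scale (edgeR adjusted p = 9e-10). Its level was 172 ± 23.6 CPM in FAP DKO and 1395 ± 179 CPM in Misc DKO, against 38.6 ± 4.50 CPM in FAP WT and 1877 ± 115 CPM in Misc WT. Aspn, asporin, a relative of decorin, changed direction: its log2 fold was −1.60 in DKO and 0.77 in WT (difference −2.37 ± 0.30, edgeR adjusted p = 0.00011). Misc DKO held 1924 ± 358 CPM of Aspn, against 265 ± 49.3 CPM in Misc WT, while FAP DKO held 634 ± 71.3 CPM, against 452 ± 30.0 CPM in FAP WT. For Ly6a, Cd248, Scx, Tnmd and Col1a1 no difference between the genotypes passed the threshold (edgeR adjusted p = 0.93, 0.17, 0.17, 0.33 and 0.52).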

How the data were processed

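Total RNA of 20 libraries (FAP, Misc and SMP, DKO and WT) was purified on RNeasy columns, per the labels' protocols. OSA mapped the reads to mm10, per the series design text; the submitters' processing notes name DESeq2. Raw counts per gene were deposited. The sources used here name neither the counting tool nor its use of strand, so an overlapping or antisense gene cannot be told apart from its partner. The table held 24393 genes, 5031 of them with no count; 52 blank or date-like symbols were restored from identifiers. Names, coordinates and promoters are from RefSeq's GRCm38.p6 tables.

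Genes passing filterByExpr (minimum count 10, minimum total 15) numbered 14179. All 6 groups entered 1 quasi-likelihood model with TMM scaling (edgeR 4.0.16, robust dispersion, R 4.3.3). Standard errors are the absolute log2 fold divided by the square root of F. Single values per library were compared by exact permutation. Counting intervals and Spearman's rho were computed with scipy 1.17.1. Depth was 9566333 to 17730111 counts in the 8 libraries. On simulated counts (13983 genes) the FAP WT against Misc WT step recovered 78% of the genes given a 2-fold change (100) and 99% of those given a 4-fold change (100), and called 11 unchanged genes. There, all other genes had equal means in the 2 groups, and the changed genes were drawn from those averaging at least 1 CPM. In the real libraries 36.9% of genes were called, so these rates need not hold for them.

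The members and the 39 gene lists were chosen with earlier results of these data known. Named genes were the 15 largest folds each way among called genes with mean CPM of at least 20 and no overlap, the 10 most abundant of each group, up to 4 called members of each list with mean CPM of at least 5, 5 each way for the difference between genotypes, and a set of marker genes. Some of these genes are not reported here. Other genes given with values fall outside this rule and were chosen after their values were seen.

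As a check of pairing, deviations from group means were correlated between FAP and Misc: r was 0.18 to 0.23 (WT) and 0.18 to 0.34 (DKO) for equal replicate numbers, and −0.18 to 0.06 for unequal ones. The numbers were taken to pair the libraries from this check alone, and no label states a pairing. Alternatives were DESeq2 1.42.0 and its size factors, unscaled totals, no filter, only the compared groups, those groups with the replicate block, each library left out, and other thresholds.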

Additional observations from a re-analysis of the deposited data

Results flagged for a closer look

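In 23 of 344 groups of 4 libraries tested, 1 library lay far from the other 3, where chance gives about 1 in 20. FAP WT replicate 1 was the highest of its group for Matn3 (0.471 CPM), Acta2 (23.9), Plvap (34.5), Apoe (360.5), Mmp28 (2.51), Crabp1 (2.83), Sema3f (6.04) and Ptprc (1.81), and the lowest for Dcn (16746) and Fbn2 (3.06). FAP WT replicate 2 was the highest for Fst (388 CPM), Ifit1 (26.6) and Cd34 (1856) and the lowest for Abcc9 (23.6). FAP WT replicate 3 was the highest for Itgb7 (31.6 CPM). FAP WT replicate 4 was the highest for Hoxa10 (23.3 CPM). Misc WT replicate 4 was the highest for Col1a1 (46014 CPM) and Leprel1 (157) and the lowest for Col3a1 (6383). Misc WT replicate 1 was the highest for Sox6 (30.4 CPM), replicate 2 the highest for Mmp3 (14.0) and the lowest for Cd248 (4.81), and replicate 3 the lowest for Kdelr3 (93.1).

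The fold of FAP over Misc differed between DKO and WT in edgeR's test of the difference, on the log2 scale, for 10 named genes. The difference, DKO minus WT, was −3.39 for Pi16, −3.06 for Islr2, −2.76 for Fmo2, −2.37 for Aspn and −2.01 for Has1. It was 2.58 for Tnc, 2.55 for C1qtnf3, 2.29 for Thbs4, 1.97 for Col8a2 and 1.91 for Wisp1. Pi16 averaged 989 ± 182 CPM in FAP DKO and 306 ± 52.5 CPM in Misc DKO, against 1468 ± 192 CPM in FAP WT and 43.6 ± 13.5 CPM in Misc WT (SD, n = 4 each). Thbs4 averaged 3163 ± 737 CPM in FAP DKO and 31593 ± 5039 CPM in Misc DKO, against 330.0 ± 44.9 CPM in FAP WT and 16119 ± 1165 CPM in Misc WT. Fmo2, a flavin monooxygenase, averaged 63.0 ± 16.0 CPM in FAP DKO and 41.6 ± 11.1 CPM in Misc DKO, against 67.5 ± 9.39 CPM in FAP WT and 6.58 ± 1.10 CPM in Misc WT.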

How the results depend on the processing

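Across scaling, test, filter and left-out libraries, the WT comparison gave 4577 to 6617 calls, the most with the replicate block in a fit of only the compared groups (3362 higher and 3255 lower), and 49.6% to 57.8% of calls were higher in FAP WT. Asking for at least a 2-fold difference left 1032 higher and 1175 lower genes in WT, 970 and 894 in DKO, and 89 and 93 for the difference between genotypes. That difference had 330 genes with a higher value in DKO when only the compared groups were fitted, 761 with the replicate block added to that fit and 81 at an adjusted p below 0.01; for lower values these were 485 with the replicate block and 79 at an adjusted p below 0.01. Leaving out 1 library gave 116 to 183 lower values, against 202 with all libraries; the cause was not tested. The 174 named genes gave 2432 values under 14 alternatives, of which 40 lost the call, 1 (Dcn) gained it and 2391 stayed on their side of the threshold. Among the last, 13 values of 6 uncalled genes (Hspa1a, Hspa1b, Hspa8, Itga7, Pax7 and Pecam1) changed sign, and no called value did. In the blocked fit, which used only the compared groups, counts of some lists moved by over 1.5 times, in part already without the block, and most stand beside the lists. The immune list had 1 lower, against 0, and imprinted growth genes 9 higher and 7 lower (9 and 5 without the block), against 6 and 2. The block changed no other named call than that of Dcn. Pairs of equal replicate number gave an exact p of 0.125 for the shares of counts of type I collagen genes (−6.41) and of the 20 most abundant genes (−6.38 percentage points). With only the compared groups, the higher calls were 7 of the insulin-like growth factor list and 3 of the cell cycle list, against 2 and 6. Depth limits genes near 1 CPM, where a library holds about 9 to 17 counts.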

Other observations

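Genes of protein synthesis and of the proteasome, chosen after their values were seen and given without a test, leaned to FAP WT. Of 78 ribosomal protein genes, 66 were called higher and 0 lower, with a median log2 fold of 0.52, and in DKO 21 were higher and 0 lower. Rps4x averaged 848 CPM in FAP WT and 496 CPM in Misc WT. Processed pseudogenes of ribosomal proteins share their sequence, so single values are uncertain. Of 12 subunits of initiation factor 3, 9 were higher and 0 lower, and of 17 proteasome core subunits 11 were higher and 0 lower. The DKO libraries gave 2 higher calls among those 12 subunits and 3 among those 17, and no lower call. Both shares lay near the 16.0% of all genes tested that were called higher in DKO. The log2 fold had a Spearman rho of −0.06 with exonic length across 13666 genes, which are not independent, and its median was 0.06, 0.03, 0.00 and −0.03 in 4 groups of like size, from the shortest to the longest genes.

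Other families seen in the same way were as follows. All 6 Ly6 genes tested, which lie together on chromosome 15, were higher in FAP WT; Ly6e averaged 199 CPM in FAP WT and 74.0 CPM in Misc WT. Ly6c1 and Ly6c2 resemble each other and their separate counts are uncertain. Of 23 serpins 12 were higher and 1, Serpinf1, was lower (2160 CPM in FAP WT and 5706 CPM in Misc WT). Of 10 annexins 7 were higher, with Anxa3 at 240.2 CPM in FAP WT and 22.8 CPM in Misc WT, and of 12 tubulins 9 were higher. Of 17 receptor tyrosine phosphatases 9 were lower and 2 higher, with Ptprt at 0.498 CPM in FAP WT and 15.6 CPM in Misc WT. Of 18 voltage-gated calcium channel subunits 10 were lower and 2 higher, with Cacnb2 at 0.573 CPM in FAP WT and 13.6 CPM in Misc WT. In DKO the serpins had 11 higher calls, the annexins 7, the tubulins 8 and the Ly6 genes 6, and the phosphatases had 9 lower calls and the calcium channel subunits 8. Among 22 cell cycle genes, 6 were higher and 3 lower in WT, and 0 were higher and 1 lower in DKO. Of all genes tested, 19.3% were higher and 17.6% lower in WT. Mki67, 1 of the 22, averaged 5.59 CPM in FAP WT and 1.53 CPM in Misc WT. The lower members Ccne1, Rrm2 and Tyms had log2 folds of −1.21, −0.87 and −0.47 in WT. Summed over the cell cycle list, FAP WT libraries held 176 to 222 CPM and Misc WT libraries 174 to 216 CPM.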
